A study of Mus musculus with 12 samples.

Results

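The 6 genes described here encode enzymes of the tricarboxylic acid (TCA) cycle, the NADP-linked isocitrate dehydrogenase of the cytosol and an aspartate aminotransferase, measured in fetal mouse hearts of E17.5, late in gestation. They are Cs, Idh1, Idh2, Idh3b, Fh1 and Got1, taken by symbol from the 768 probes of the series, and all 6 passed the filter of a mean count of at least 20 that left 695 genes to test. The hearts fell into 3 genotypes of 4 embryos each: homozygous knockout of Slc25a1 (KO), heterozygous knockout of Slc25a1 (HET) and wild type (WT), all from timed matings of heterozygous parents and none given any treatment in the labels. Total RNA of each heart was read by NanoString nCounter, an assay without amplification in which bar-coded probes hybridised to transcripts are counted one by one. Slc25a1 encodes the mitochondrial citrate carrier, which exports citrate from the matrix, and the genotypes were compared to see how metabolic genes of the heart respond to losing it. The labels name no litter, sex, strain or assay batch, and they do not say which part of Slc25a1 was removed.

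In the mitochondrial matrix, citrate synthase (Cs) joins acetyl-CoA to oxaloacetate, and citrate is then isomerised to isocitrate. Isocitrate is oxidised in the matrix by the NAD-linked enzyme, of which Idh3b encodes a regulatory subunit beside the subunits of Idh3a and Idh3g, or by the NADP-linked enzyme of Idh2. Idh1 encodes the NADP-linked counterpart of cytosol and peroxisomes, which can act on citrate carbon after export. Fumarase, encoded by Fh1, hydrates fumarate to malate and works both in the matrix and in the cytosol. Got1 encodes the cytosolic aspartate aminotransferase of the malate-aspartate shuttle, which carries reducing equivalents into mitochondria, and is no TCA cycle enzyme.

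In the RefSeq annotation of GRCm38.p6 the genes lie at chr10:128337727-128362482 (Cs), chr1:65158616-65186479 (Idh1), chr7:80094845-80118608 (Idh2), chr2:130279309-130284451 (Idh3b), chr1:175601378-175625635 (Fh1) and chr19:43499752-43524605 (Got1), and all 6 are protein-coding. The 250 bases before the annotated start are printed for Cs, Fh1, Got1 and Idh1, and those of Idh2 and Idh3b were searched in the same way. The printed windows are chr10:128337477-128337726 on the plus strand for Cs, chr1:175625636-175625885 on the minus strand for Fh1, chr19:43524606-43524855 on the minus strand for Got1 and chr1:65186480-65186729 on the minus strand for Idh1. That of Idh2, chr7:80115351-80115600 on the minus strand, lies within the gene span given above, so it precedes an internal start. Capitals mark the letters CCAAT read on the gene's strand, or ATTGG where they lie on the opposite strand.
Cs promoter: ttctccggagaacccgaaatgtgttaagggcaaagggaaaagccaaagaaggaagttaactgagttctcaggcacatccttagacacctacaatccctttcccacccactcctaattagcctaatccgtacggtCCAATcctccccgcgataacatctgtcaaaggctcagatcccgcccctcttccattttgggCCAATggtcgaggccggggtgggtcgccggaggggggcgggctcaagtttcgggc
Fh1 promoter: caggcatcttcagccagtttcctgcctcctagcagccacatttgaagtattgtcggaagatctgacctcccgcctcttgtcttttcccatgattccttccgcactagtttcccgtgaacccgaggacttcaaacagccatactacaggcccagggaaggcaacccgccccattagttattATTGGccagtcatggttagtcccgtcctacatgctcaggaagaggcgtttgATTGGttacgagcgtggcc
Got1 promoter: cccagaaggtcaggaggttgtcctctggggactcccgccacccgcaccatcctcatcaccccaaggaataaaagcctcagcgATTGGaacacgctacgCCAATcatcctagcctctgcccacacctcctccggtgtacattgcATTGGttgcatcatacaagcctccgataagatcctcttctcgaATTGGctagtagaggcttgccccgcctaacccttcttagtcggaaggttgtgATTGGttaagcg
Idh1 promoter: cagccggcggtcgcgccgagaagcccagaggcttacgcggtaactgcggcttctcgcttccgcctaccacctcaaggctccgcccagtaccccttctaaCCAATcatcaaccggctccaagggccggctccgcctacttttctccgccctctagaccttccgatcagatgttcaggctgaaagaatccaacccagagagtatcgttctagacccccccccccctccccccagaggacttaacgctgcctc
The Got1 window held 5 such matches, those of Cs and Fh1 2 each, and those of Idh1, Idh2 and Idh3b 1 each. Idh3b moved closely with Cs, Fh1 and Got1 from heart to heart, as shown further on, and held as many matches as Idh1 and Idh2. A link between these letters and the measured values was not tested. A further RefSeq start of Idh1, at chr1:65179143-65179392, held 0. The same letters occurred in 33.9% of 32851 RefSeq promoter windows of this length, and 10.1% held 2 or more; by gene symbol the share was 37.5% of 27025. CCAAT was picked after the windows had been read. Of the other motifs searched on both strands, GGGCGG was found in the windows of Cs, Fh1, Idh1 and Idh2 and in 32.7% of all, CGCANGCG in none of the 6 genes' windows and in 6.76% of all, and AAGGTCA in that of Got1 and in 4.08% of all. No match of one motif overlapped a match of another.

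The deposited values are ratios to Tbp, a general transcription factor, in the same heart. Whole probe counts were recovered from them, with a Tbp count of 276 to 433 and a total of 1285512 to 1565516 per heart. The counting error of Tbp, 4.81 to 6.02%, is shared by all ratios of a heart. Members had counts of 1131 to 18820, so their own counting error was smaller, and pairs of hearts of 1 genotype differed by more than counting error (chi-square per degree of freedom 2.81 to 29.3 over 18 pairs). Slc25a1 itself followed the labels, at 16.1% of the WT mean in KO and 56.2% in HET hearts. None of the 18 cardiomyocyte and 6 erythroid markers listed is among the probes analysed here, so the share of heart muscle in each sample was not checked. In such whole-organ RNA, fewer cells of a type and less RNA per cell cannot be told apart.

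All 6 members had their lowest mean in KO hearts, an intermediate mean in HET hearts and their highest mean in WT hearts, but the hearts of each pair of genotypes overlapped in every member and no difference passed the test across 695 genes. The KO means were 75.6 to 86.5% of WT, with Idh3b at the low end and Idh2 at the high end. The HET means were 88.6 to 92.6% of WT. Most of the other genes measured lay on the same side: in KO against WT, 520 of 695 genes (74.8%) had a change below 0, with a median of -0.13 on the log2 scale, against a median of -0.35 over the 6 members.

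Cs, which commits acetyl-CoA to the cycle, had ratios to Tbp of 33.4, 46.9, 41.2 and 50.1 in KO hearts 1 to 4, of 55.8, 48.9, 53.5 and 36.7 in HET hearts and of 60.7, 41.9, 49.5 and 64.0 in WT hearts. The means were 42.9 ± 7.33 in KO, 48.7 ± 8.51 in HET and 54.0 ± 10.2 in WT hearts (SD, n = 4 each). KO 1 and HET 4 were the lowest hearts and WT 4 the highest, and 2 KO hearts, 2 and 4, exceeded the lowest WT heart. The log2 change, with an SE of 0.176, was -0.33 for KO against WT (limma adjusted p = 0.375; -0.21 without KO 1) and -0.15 for HET against WT (limma adjusted p = 0.871).

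Idh3b, the NAD-linked subunit, had ratios of 15.7, 21.3, 18.5 and 22.7 in KO hearts, of 27.5, 23.3, 25.2 and 17.4 in HET hearts and of 28.0, 20.2, 24.2 and 31.0 in WT hearts. Its means were 19.5 ± 3.09 in KO, 23.3 ± 4.32 in HET and 25.9 ± 4.71 in WT hearts (SD, n = 4 each). Only WT 2 lay within the range of the KO hearts, and only HET 4 among the HET hearts did so. The log2 change in KO against WT was -0.40 (SE 0.173, 95% interval -0.77 to -0.03), the furthest from 0 of the 6, with a limma p of 0.0364 before and 0.371 after adjustment.

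Idh2, the NADP-linked matrix enzyme, had ratios of 4.20, 6.58, 5.45 and 6.43 in KO hearts, of 6.96, 6.09, 5.80 and 4.95 in HET hearts and of 7.40, 5.02, 5.63 and 8.14 in WT hearts. The means were 5.67 ± 1.10 in KO, 5.95 ± 0.831 in HET and 6.55 ± 1.47 in WT hearts (SD, n = 4 each). The 3 genotypes overlapped widely, and KO 2 and KO 4 exceeded WT 2 and WT 3. The KO against WT change of -0.20 (SE 0.181, limma adjusted p = 0.534) was the nearest to 0 of the members. It was -0.066 without KO 1, -0.089 without WT 4, -0.14 without WT 1 and -0.32 without WT 2.

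Idh1, the cytosolic and peroxisomal form, had ratios of 3.54, 3.46, 3.39 and 4.31 in KO hearts, of 4.55, 4.19, 3.82 and 3.71 in HET hearts and of 4.99, 4.18, 3.99 and 5.06 in WT hearts. Its means were 3.68 ± 0.428 in KO, 4.07 ± 0.379 in HET and 4.55 ± 0.552 in WT hearts (SD, n = 4 each). KO hearts 1 to 3 lay below every WT heart, and KO 4 lay above WT 2 and WT 3. The change in KO against WT was -0.31 on the log2 scale (SE 0.125, 95% interval -0.58 to -0.04), with a limma p of 0.0277 before and 0.371 after adjustment.

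Fh1, the fumarase gene, had ratios of 23.6, 32.4, 27.8 and 34.2 in KO hearts, of 40.2, 34.8, 36.6 and 26.3 in HET hearts and of 43.8, 29.9, 35.0 and 46.8 in WT hearts. The means were 29.5 ± 4.74 in KO, 34.4 ± 5.89 in HET and 38.9 ± 7.79 in WT hearts (SD, n = 4 each). As for Idh3b, WT 2 was the only WT heart within the KO range. Its change in KO against WT was -0.39 (SE 0.174, 95% interval -0.76 to -0.02), with a limma p of 0.041 before and 0.371 after adjustment.

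Got1, the cytosolic aminotransferase, had ratios of 15.8, 20.7, 18.6 and 22.9 in KO hearts, of 26.8, 23.4, 26.9 and 17.2 in HET hearts and of 27.8, 18.9, 24.4 and 30.8 in WT hearts. The means were 19.5 ± 3.02 in KO, 23.6 ± 4.54 in HET and 25.5 ± 5.13 in WT hearts (SD, n = 4 each). Its order of hearts was close to that of the matrix enzymes, with KO 1, HET 4 and WT 2 the lowest of their genotypes. Its log2 changes, each with an SE of 0.181, were -0.38 for KO against WT (limma adjusted p = 0.371), -0.11 for HET against WT (limma adjusted p = 0.871) and -0.27 for KO against HET.

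**Figure D1:**
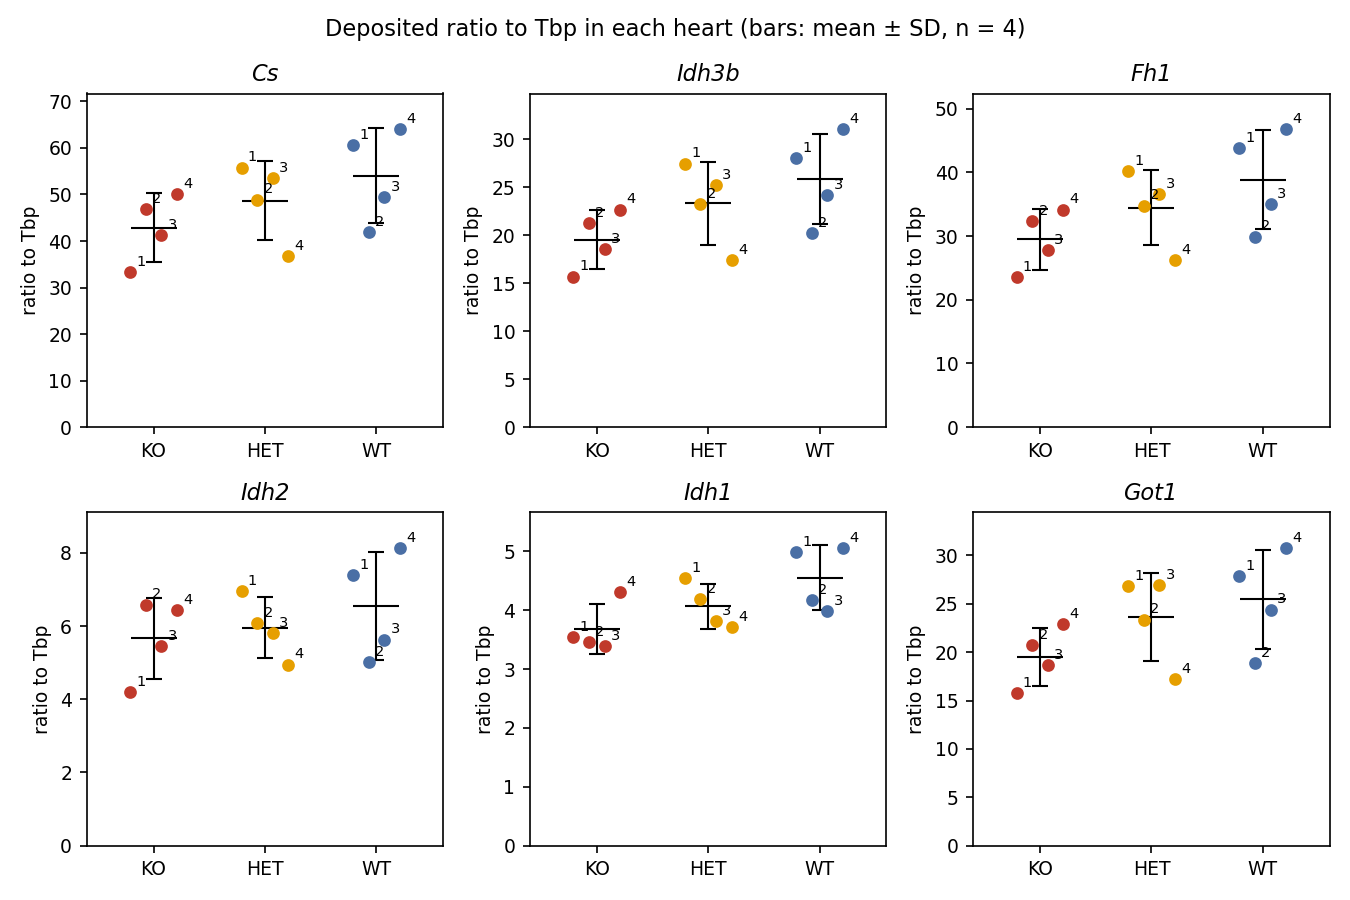
Deposited ratio to Tbp (y axis, from 0) of each member in each heart, with KO, HET and WT from left to right, hearts numbered by replicate, and horizontal bars with whiskers for the mean ± SD (n = 4). Means step up toward WT in all 6 panels while the points of neighbouring genotypes overlap; KO 1 is the lowest point for every gene except Idh1.

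None of the 6 members was called at an adjusted p under 0.05 in any of the 3 comparisons, where the share of all 695 genes called was 0.144% for KO against WT, 0.144% for HET against WT and 0.432% for KO against HET. At an unadjusted p under 0.05, 3 members (Idh1, Idh3b and Fh1) lay lower in KO against WT, as did 9.5% of all genes, and 0 members passed in each of the other 2 comparisons. Complete separation, with every heart of the first genotype below every heart of the second, was seen for 0 members in KO against WT (2.59% of all genes), 0 in HET against WT (0.576%) and 0 in KO against HET (2.16%). In HET against WT the 6 changes ran from -0.17 to -0.11, with a median of -0.15 against -0.07 over all genes. That median rested on single hearts: it was -0.027 without HET 4, -0.058 without WT 4, -0.095 without WT 1 and -0.25 without WT 2. Without HET 4, the HET against WT change was -0.017 for Cs and -0.016 for Idh3b. In KO against HET they ran from -0.27 to -0.08, with a median of -0.20 against -0.08, and the median was -0.33 without HET 4 and -0.13 without HET 1 or without KO 1. KO against WT and HET against WT share the 4 WT hearts, so their directions are not independent of each other.

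Setting each heart to the median of its genes removed the part of these changes that the whole panel shared. It moved the median of all genes in KO against WT to 0.0012, from -0.13 on the deposited scaling, and the members then had changes of -0.27 (Idh3b), -0.26 (Fh1), -0.25 (Got1), -0.20 (Cs), -0.18 (Idh1) and -0.07 (Idh2), all still below 0. The limma adjusted p-values were 0.24 to 0.76, and 0 members were called, where the share of genes called was 0.432% for KO against WT, 0% for HET against WT and 0.288% for KO against HET. On this scale even Slc25a1 was not called in HET against WT (-0.75, limma adjusted p = 0.503). Idh1 was then the 1 member with all KO hearts (1.27 to 1.57 on the median-centred log2 scale) below all WT hearts (1.58 to 1.68). Such separation was seen for 3.74% of all genes. For Idh1, KO 4 at 1.57 and WT 2 at 1.58 differed by less than the counting error of Idh1 in either heart. On the deposited ratio KO 4 lay above WT 2 and WT 3, so this separation of Idh1 depends on the scaling. Under quantile normalisation the KO against WT changes shrank to -0.03 for Cs and Got1, -0.07 for Idh3b and Fh1 and -0.00019 for Idh2, while Idh1 was at -0.15; 0 members were called.

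**Figure D2:**
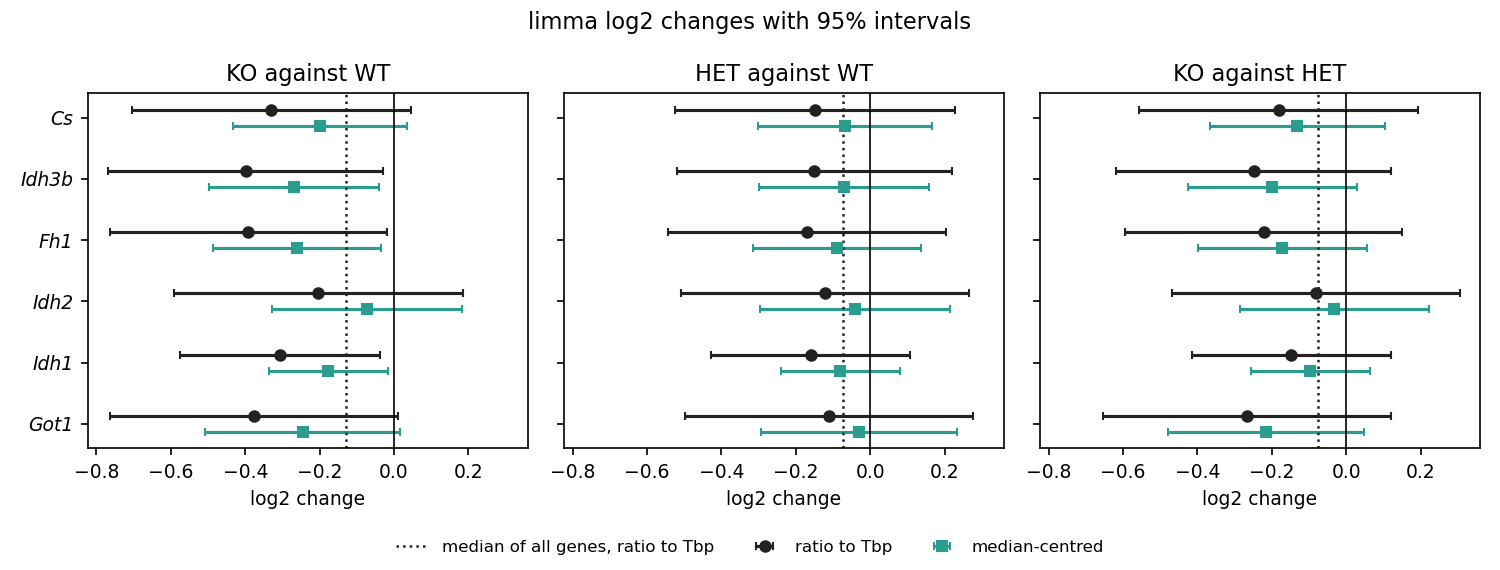
The limma log2 change of each member (x axis) with its 95% interval, in a panel for each pair of genotypes, on the deposited ratio to Tbp (circles) and after centring each heart on its median (squares); the dotted line is the median of all 695 genes on the ratio to Tbp. All points lie below 0, and in KO against WT the intervals of Idh3b, Fh1 and Idh1 exclude 0 before adjustment over genes.

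How the hearts were weighted changed the KO against WT calls. With heart weights estimated by limma, 5 members were called lower: Fh1 at -0.49 (limma adjusted p = 0.0255), Idh3b at -0.47 (0.0268), Got1 at -0.46 (0.0273), Idh1 at -0.42 (0.0248) and Cs at -0.41 (0.0346), while Idh2 was at -0.29 (0.113). In the same fit 23.9% of all 695 genes were called, 156 lower and 10 higher. The weights were lowest for HET 4 (0.291), WT 2 (0.365), KO 1 (0.416) and WT 3 (0.467) and highest for WT 1 (3.11). Leaving out KO 1, HET 4 and WT 2, a choice made with earlier results known, together with median centring gave calls for Idh3b at -0.30, Fh1 at -0.30 and Got1 at -0.31 (limma adjusted p 0.0445, 0.0445 and 0.0482), where 5.47% of genes were called. On the median-centred scale too, these 3 hearts held the lowest values of Cs, Idh3b, Fh1 and Got1 in their genotypes, so leaving them out also narrows the spread within genotypes.

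The same hearts also held the highest stroma and mesenchyme sums of their genotypes. That list of genes was chosen with earlier results of these data known, so it is no independent measure. The summed ratio of 7 stroma and mesenchyme genes, all measured, was 27.9 in KO 1, against 22.4 to 23.5 in the other KO hearts; 33.2 in HET 4, against 21.5 to 29.3 in the other HET hearts; and 33.0 in WT 2, against 19.5 to 21.7 in the other WT hearts. By genotype the sum was 22.4 to 27.9 in KO, 21.5 to 33.2 in HET and 19.5 to 33.0 in WT hearts, and 0 of these 7 genes were called in KO against WT. Tbp counts, the divisor, were 398 in KO 1, 433 in HET 4 and 355 in both WT 2 and WT 3, against 276 to 354 in the remaining hearts. The summed ratio of the 14 leukocyte markers on the panel, 9 of them tested, was 1.76 to 1.89 in KO, 2.03 to 2.45 in HET and 1.82 to 2.40 in WT hearts. For the 2 endothelial markers measured it was 1.17 to 1.93 in KO, 1.23 to 1.74 in HET and 1.41 to 1.75 in WT hearts. The part of cell makeup or of the Tbp count in the members' values was not tested.

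The isocitrate dehydrogenases were next compared within each heart, as the log2 ratio of the counts of 2 probes, from which Tbp cancels. Such a ratio does not give the ratio of molecules, since probes differ in efficiency, and only its differences between genotypes are read here. Idh3b over Idh2, NAD-linked over NADP-linked enzyme of the matrix, was 1.90, 1.69, 1.76 and 1.82 in KO hearts, 1.98, 1.93, 2.12 and 1.81 in HET hearts and 1.92, 2.01, 2.10 and 1.93 in WT hearts. Every KO heart lay below every WT heart, though KO 1 and WT 1 were close, and HET 4 fell among the KO hearts. The mean was 1.79 ± 0.0880 in KO and 1.99 ± 0.0834 in WT hearts, a difference of -0.20 (two-sided exact permutation p = 0.0286, the smallest that 4 against 4 hearts allow). Adjusted over the 9 isocitrate dehydrogenase tests, this p was 0.257, above the threshold. A single ratio at the smallest possible p could not pass this adjustment, so the result does not decide whether the ratio differs. On the linear scale the ratio was 3.47 ± 0.212 in KO, 3.90 ± 0.343 in HET and 3.98 ± 0.233 in WT hearts (SD, n = 4 each).

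Idh3b over Idh2 differed by -0.17 in KO against HET (exact permutation p = 0.0857, adjusted p = 0.386). The HET against WT difference was -0.03 (exact permutation p = 0.771, adjusted p = 0.868). Leaving out each heart in turn kept the KO against WT difference between -0.23 and -0.16. Both enzymes shifted against Cs: Idh2 over Cs averaged -2.93 ± 0.0693 in KO and -3.05 ± 0.0662 in WT hearts. Idh3b over Cs averaged -1.13 ± 0.0299 in KO and -1.06 ± 0.0361 in WT hearts (log2, SD, n = 4 each). The ratios to Cs have no test, and a link to the cofactor was not tested.

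Against cytosolic Idh1, the matrix forms showed no difference that exceeded the spread between hearts. Idh3b over Idh1 averaged 2.40 ± 0.196 in KO, 2.50 ± 0.210 in HET and 2.49 ± 0.158 in WT hearts, a difference of -0.09 in KO against WT (exact permutation p = 0.486, adjusted p = 0.868). Idh2 over Idh1, the 2 NADP-linked enzymes, averaged 0.61 ± 0.283 in KO, 0.54 ± 0.0916 in HET and 0.50 ± 0.177 in WT hearts, a difference of 0.10 in KO against WT (exact permutation p = 0.6, adjusted p = 0.868). The KO hearts spread most in this ratio, with 0.93 in KO 2 and 0.24 in KO 1. The mean log2 value of Cs, Idh2 and Idh3b minus that of Idh1 and Got1, matrix against cytosol, was 0.98 ± 0.144 in KO, 0.95 ± 0.0516 in HET and 0.95 ± 0.0648 in WT hearts (SD, n = 4 each). The difference between KO and WT hearts in this measure was 0.03, or 0.01 with Fh1 counted to the matrix, which is less than the SD between hearts, and it has no test.

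**Figure D3:**
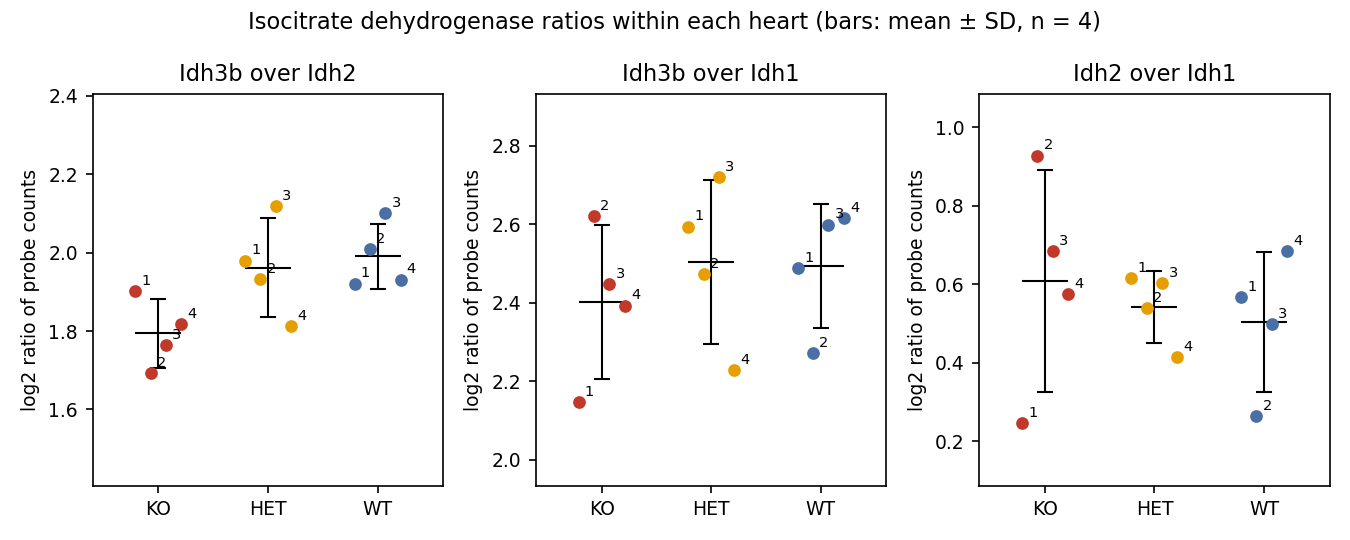
Within-heart log2 ratio of probe counts (y axis, a window of 1 log2 unit in each panel) for Idh3b over Idh2, Idh3b over Idh1 and Idh2 over Idh1, with KO, HET and WT from left to right, hearts numbered, and bars for the mean ± SD (n = 4). The KO hearts lie at 1.69 to 1.90 and the WT hearts at 1.92 to 2.10 in the first panel, while genotypes overlap in the other panels.

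Among the subunits of the NAD-linked enzyme, Idh3b had the lowest KO level relative to WT. The KO against WT changes were -0.40 (Idh3b), -0.35 (Idh3a) and -0.32 (Idh3g), each with an SE of 0.17. That SE belongs to each gene's own change and is not the error of a difference between subunits of the same hearts. Idh3b over Idh3g on the linear scale was 0.872 to 0.913 in KO, 0.905 to 0.977 in HET and 0.929 to 0.970 in WT hearts, so KO and WT hearts did not overlap. Idh3b over Idh3a was 0.646 to 0.682 in KO, 0.667 to 0.683 in HET and 0.657 to 0.697 in WT hearts, with overlap throughout. These subunit ratios were looked at after the values were known and have no test.

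Got1 was set against a cytosolic and a matrix enzyme in the same way. Got1 over Idh1 averaged 2.40 ± 0.179 in KO, 2.52 ± 0.248 in HET and 2.47 ± 0.205 in WT hearts, with a KO against WT difference of -0.07 (exact permutation p = 0.514, adjusted over 6 tests 0.617). Got1 over Cs was far steadier, at -1.13 ± 0.0407 in KO, -1.05 ± 0.0426 in HET and -1.09 ± 0.0608 in WT hearts (SD, n = 4 each). Its largest difference between genotypes was -0.08 in KO against HET (exact permutation p = 0.0571, adjusted p = 0.343). Against Got2, the mitochondrial aspartate aminotransferase of the same shuttle, the linear Got1 ratio was 5.68 ± 0.176 in KO, 5.95 ± 0.665 in HET and 5.69 ± 0.316 in WT hearts (SD, n = 4 each).

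The heart-to-heart pattern set Idh1 apart from the other members. On median-centred values, with all genes read in the same 12 hearts, Cs, Idh3b, Fh1 and Got1 correlated with each other at Pearson's r of 0.953 to 0.986. Idh2 correlated with these 4 at 0.676 to 0.804, and Idh1 with the other 5 members at 0.109 to 0.388. With the genotype means removed, the values for Idh1 were -0.13 to -0.02. On the deposited ratios, which also share the Tbp divisor, all pairs lay between 0.721 and 0.995. The linear ratio of Fh1 over Idh3b stayed within 1.45 to 1.56 and that of Got1 over Idh3b within 0.934 to 1.07 over all 12 hearts, while Idh2 over Idh1 ran from 1.18 to 1.90. On median-centred values, Cs, Idh3b, Fh1, Got1 and Idh2 were lowest in KO 1, while Idh1 there was near its mean over the hearts. The deposited Idh1 ratio of KO 1, 3.54, ranked 3 of 12 from the lowest.

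**Figure D4:**
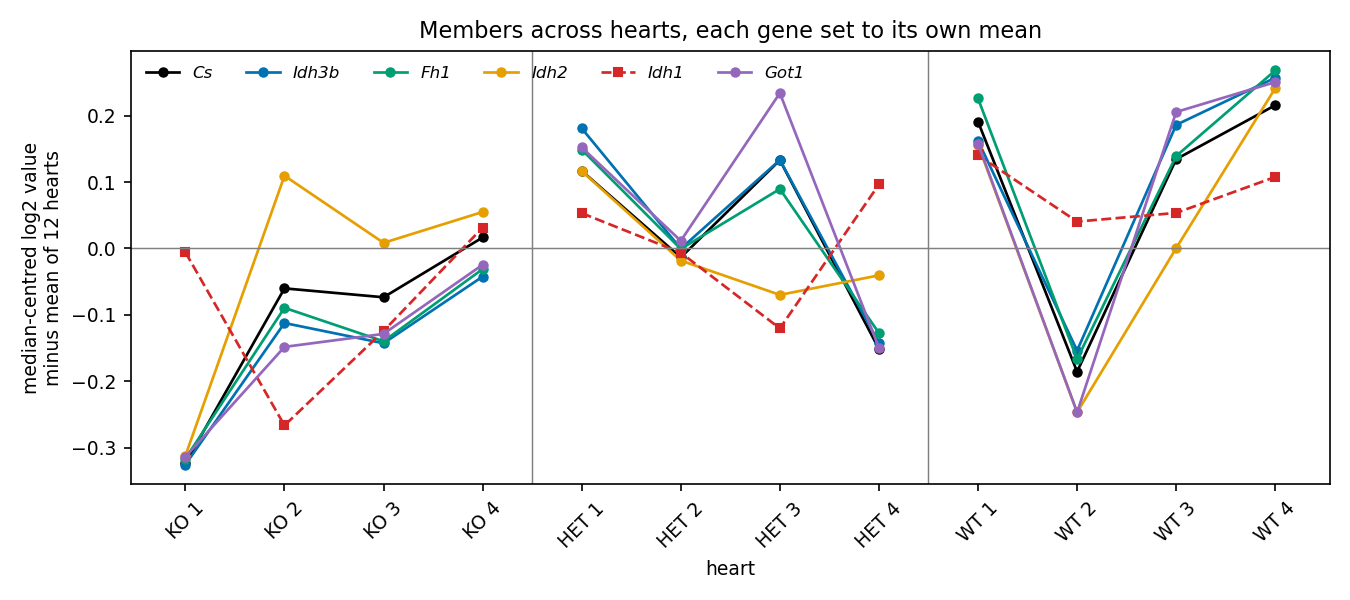
Median-centred log2 value of each member minus its own mean over the 12 hearts (y axis), heart by heart, with KO, HET and WT from left to right; lines join hearts of 1 genotype only for legibility, since replicates have no order. Cs, Idh3b, Fh1 and Got1 trace 1 pattern with low points in KO 1, HET 4 and WT 2; Idh2 follows them in part, and Idh1 (dashed, squares) does not.

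The genes most like each member over the 12 hearts, by Pearson's r on median-centred values, were of the respiratory chain, the ATP synthase and pyruvate or succinate oxidation for the 4 closely correlated members. They were Cox6a1 (0.986) and Uqcr10 (0.985) for Cs, Atp5k (0.992) and Pdha1 (0.992) for Idh3b, Cox5a (0.998) and Sdhb (0.995) for Fh1, and Sdhc (0.988) and Uqcr11 (0.987) for Got1. Each of these 4 had 62 to 64 of 694 other genes above 0.9. For Idh2 the closest were Pkm (0.882), a pyruvate kinase, and Adk (0.875), adenosine kinase. For Idh1 they were Timeless (0.843), a gene of replication fork protection, and Pgd (0.833), an NADPH-producing enzyme of the pentose phosphate pathway. Neither Idh2 nor Idh1 had any other gene above 0.9.

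The other genes of these pathways on the panel gave 0 calls in KO against WT. All 7 measured genes of the remaining TCA cycle had changes below 0, with a median of -0.32; the lowest were the succinate dehydrogenase genes Sdhb (-0.48, SE 0.189) and Sdha (-0.42, SE 0.186), followed by Idh3a (-0.35) and Sdhc (-0.32). Of 8 genes of pyruvate entry, 7 were below 0 (median -0.26), with the pyruvate carrier subunit Mpc2 at -0.47 (SE 0.184), the pyruvate dehydrogenase subunit Pdha1 at -0.37 and the kinases that inhibit it, Pdk2 and Pdk1, at -0.32 and -0.29. Of 8 genes of the malate-aspartate shuttle and of aspartate or glutamate entry, 5 were below 0 (median -0.12). Got2 was at -0.37, glutamine synthetase Glul at -0.31 and glutamate dehydrogenase Glud1 at -0.22, while Ass1, which uses aspartate to make argininosuccinate, was at 0.27. This last median is near that of all genes, -0.13.

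Genes downstream of citrate export were few on the panel. The acetyl-CoA carboxylase genes Acacb (-0.32) and Acaca (-0.03) and the fatty acid synthase gene Fasn (-0.24) gave 0 calls in KO against WT. Of the other NADPH sources, Pgd was at -0.33 (SE 0.123), the mitochondrial malic enzyme Me2 at -0.21 and glucose-6-phosphate dehydrogenase G6pdx at -0.09, again with 0 calls in KO against WT.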

How the data were processed

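The deposited values of the authors are ratios: each probe's value over that of Tbp in the same heart, per the file itself, in which Tbp is 1. The counting software, panel name, background subtraction and control-probe scaling are steps not given in the sources used here. Whole counts were recovered with the smallest whole multiplier of each heart's ratios (tolerance 0.01), so they are the smallest counts the ratios allow.

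Values were analysed as log2((count + 1) / Tbp count) with limma 3.58.1 in R 4.3.3, 1 mean per genotype over 12 hearts. Tbp was left out, as were 72 probes whose mean count was below 20, and p-values were Benjamini-Hochberg adjusted over 695 genes with a threshold of 0.05. Within-heart ratios were compared by two-sided exact permutation, adjusted over 9 and 6 tests. With 4 hearts a genotype, a single ratio at the smallest possible p could not pass either adjustment. The p-values of limma and of the permutation measure the spread between embryos. Both tests were tested on simulated data. Alternatives covered the scaling, pseudocount, filter, variance trend, heart weights, replicate number as a block, left-out hearts, and fits of 2 genotypes. The members and lists were chosen with earlier results of these data known. Named were the 6 members, Slc25a1, up to 4 measured genes with the smallest p of each pathway list (all subunits of the NAD-linked enzyme were added after the values were seen), and the 2 genes most like each member. Sequences are from RefSeq tables of GRCm38.p6, in which all 6 members were matched. Permutation tests and figures used Python 3.11.15, with matplotlib 3.10.9 for drawing.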

Additional observations from a re-analysis of the deposited data

Results flagged for a closer look

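The Idh1 ratio to Tbp of 4.31 in KO 4 stood apart from the other KO hearts, at 3.39 to 3.54, with a gap of 0.837 of the group's whole range. It was the 1 of 33 groups of 4 hearts in which a heart stood apart by this measure, and chance alone gives about 1 in 20 groups.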

How the results depend on the processing

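Each genotype had 4 embryos, all ratios of a heart share a divisor of 276 to 433 counts, and no litter or sex is labelled. In KO against WT all 6 members stayed below 0 in each of 25 alternatives (150 values, -0.51 to -0.00019). Part of this was fixed in advance. The filter, variance trend, replicate block, fits of 2 genotypes and left-out hearts of the third genotype cannot move a difference of 2 genotype means. Of the 150 values, 142 kept their side of the threshold and 8 became calls. Of these calls, 5 came with heart weights and 3 with median centring without KO 1, HET 4 and WT 2. The genes called in KO against WT numbered 1 on the deposited scaling, 3 with median centring, 4 with quantile normalisation, 2 without KO 1, HET 4 and WT 2, 38 with median centring and without these hearts, and 166 with heart weights. Each heart left out in turn gave 1.

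In HET against WT 1 gene was called, against 0 with median centring (also with the replicate block, and without the 3 hearts), 0 without the 3 hearts on the deposited scaling, 4 with heart weights and 0 to 1 with each heart left out. In KO against HET 3 genes were called, against 7 with heart weights, 5 with a mean-variance trend and 1 to 3 with each heart left out.

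The members changed sign in 4 of 150 values in HET against WT and in 3 of 150 in KO against HET. Under quantile normalisation HET against WT gave 0.018 for Cs, 0.012 for Idh3b and 0.045 for Got1, and KO against HET gave 0.031 for Idh2. Without each heart in turn, Got1 in HET against WT ran from -0.25 to 0.033 (0.033 without HET 4), and Idh2 in KO against HET from -0.17 to 0.054 (0.054 without KO 1, and 0.048 with median centring without the 3 hearts).

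Leaving out single hearts turned the sign of some within-heart ratios. None of these passed the test, which a single ratio could not pass after adjustment. In HET against WT the differences ran from -0.064 to 0.10 for Idh3b over Idh1, -0.041 to 0.10 for Idh2 over Idh1, -0.049 to 0.15 for Got1 over Idh1 and -0.082 to 0.020 for Idh3b over Idh2. In KO against WT they ran from -0.17 to 0.013 for Got1 over Idh1 and -0.0023 to 0.23 for Idh2 over Idh1, and in KO against HET from -0.041 to 0.19 for Idh2 over Idh1. The cause of these changes was not tested.

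The labels do not say whether hearts with the same replicate number are paired. Of 12 pairs with 1 number, 5 correlated above 0.1 (-0.51 to 0.36). Hearts of unlike number were not set beside them, so these values do not decide whether the numbers pair the hearts. With the replicate block the genes called numbered 1 in KO against WT, 1 in HET against WT and 2 in KO against HET, no member was called, and Idh3b over Idh2 in KO against WT had an exact p of 0.125, the smallest 4 pairs allow.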
